A study of Fukomys damarensis with 16 samples.

Results

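The 8 kidney and liver libraries of a poly(A)+ RNA sequencing study of the Damaraland mole-rat, Fukomys damarensis, were compared, out of 16 libraries in all. They were taken by the tissue in their labels, 4 from kidney and 4 from liver. Each tissue has 1 library for each class of status and sex: breeding males, breeding females, non-breeding males labelled 5 years old and non-breeding females labelled 3 years old. The labels give no age for the breeders, no treatment or altered allele, and nothing on which libraries share an animal or pool several. Kidney and liver libraries of the same breeding status and sex were set against each other as 4 pairs. The other 8 libraries are from brain, ovary and testis. The brain libraries are labelled frontal brain, except the non-breeding male one, which is labelled brain.

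Damaraland mole-rats are burrowing rodents that live in colonies where few animals breed and the others help. The liver takes up and stores nutrients, detoxifies, makes bile and secretes most plasma proteins, so a few secretory transcripts usually make up much of its messenger RNA. The kidney filters blood and then recovers salts, sugars and water along a series of tubule segments, each with its own transporters and channels. In a piece of whole organ, fewer cells of a type and less RNA per cell cannot be told apart.

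The deposited table lists genes by identifier only. A search of RefSeq's annotation (assembly DMR_v1.0_HiC, 33132 genes) by symbol, locus tag and accession found 0 of the 21082 identifiers. Gene names, pathways and tissue markers could therefore not be used, and only the identifiers of the leading genes in each direction are printed. The labelled tissues could be checked only by likeness: Pearson correlations across genes were 0.94 to 0.976 within kidney, 0.941 to 0.978 within liver and 0.63 to 0.711 between a kidney and a liver library. The 2 breeding female libraries were the least like the others of their tissue, with mean correlations of 0.95 in kidney and 0.945 in liver against 0.96 to 0.967 for the other 6.

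Levels are in RPKM, reads scaled to the length of the gene model and to a divisor for each library, and differences are on the log2(RPKM + 1) scale, kidney minus liver. The kidney libraries held 15634095 to 19534775 reads on genes and the liver libraries 23857020 to 27593857. A gene was tested if it reached 1 RPKM in 2 or more of the 8 libraries, which left 14453 genes and dropped 6629, of which 2168 were at 0 in all 8. A gene was called higher in a tissue when the paired limma fit gave an adjusted p under 0.05 and a difference of at least 1 on the log2 scale.

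The summed RPKM was 638614 to 681080 in the kidney libraries and 1172846 to 1536307 in the liver libraries. Liver exceeded kidney in 4 of 4 pairs, by 2.41 times in breeding males, 1.72 times in breeding females, 2.1 times in non-breeding males and 2.01 times in non-breeding females. Counts are therefore given for the deposited values and again after every column was scaled to the same total. Scaling moved the median difference of all genes tested from 0.02 to 0.93, a shift of 0.91 towards kidney. The divisor of each library enters these totals. Reads on genes came to 0.862 to 0.945 of it in kidney and 1.554 to 1.974 in liver. How much of the excess goes with the divisor was not tested. As deposited, most of the excess in liver was in few genes. The 175 genes among the 100 most abundant of either tissue summed to 177190 to 206869 RPKM in the kidney libraries and 618850 to 889464 in the liver libraries, and all other genes to 450838 to 474211 and 553995 to 646842. The median gene tested stood at 12.7 to 13.4 RPKM in the kidney libraries and 12.1 to 13 in the liver libraries as deposited.

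As deposited, 2530 genes were called higher in kidney (17.5% of the genes tested) and 1999 higher in liver (13.8%), 31.3% in all. After scaling to equal totals the calls were 6686 (46.3%) and 962 (6.66%), 52.9% in all, so that 87.4% of calls were higher in kidney against 55.9% as deposited. All 2530 genes higher in kidney as deposited were called so under both scalings. Of the 1999 higher in liver, 960 were, and the other 1039 were called only as deposited. Scaling added 4156 genes in kidney and 2 in liver. No gene was called in opposite directions (0 of 14453). By the adjusted p alone, with no fold required, 4086 genes (28.3%) were higher in kidney and 3471 (24%) in liver as deposited, and 10023 (69.3%) and 1381 (9.56%) after scaling. The 2530 and 960 genes called under both scalings are referred to as the kidney genes and the liver genes.

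**Figure D1:**
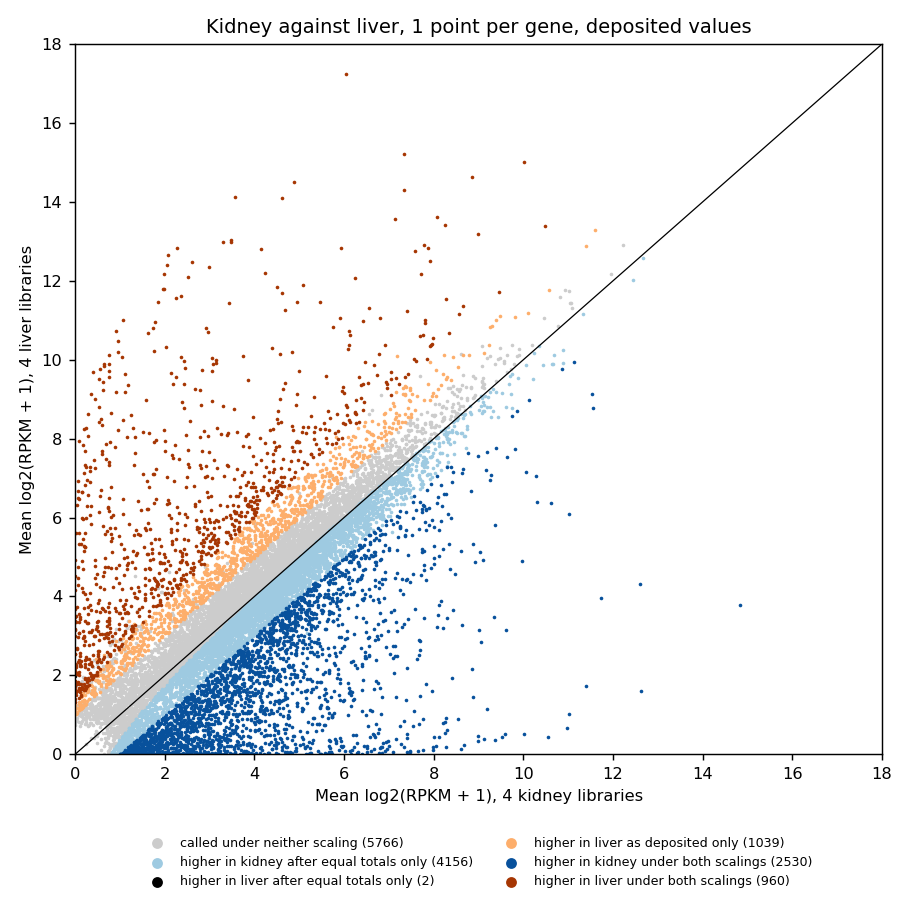
Mean log2(RPKM + 1) of 14453 genes in the 4 kidney libraries (x axis) and the 4 liver libraries (y axis) as deposited, coloured by the scaling under which limma called them; the line marks equal levels. The 2530 kidney genes lie below the line and the 960 liver genes above it, and the 4156 genes called only after scaling to equal totals form a band just below the line.

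The largest differences were more often on the liver side as deposited, though not those of 8-fold. Among the liver genes 434 differed by 8-fold or more, 197 by 32-fold or more and 83 by 128-fold or more as deposited. Among the kidney genes the numbers were 537, 141 and 38. After scaling, 143 genes were called 32-fold or more higher in liver and 244 in kidney, so which tissue had more genes of that size depended on the scaling. For 2397 of 2530 calls in kidney and 1893 of 1999 in liver as deposited, all 4 libraries of the higher tissue stood above all 4 of the other, as they did for 25.1% and 21.2% of all genes tested. After scaling the numbers were 6376 of 6686 and 891 of 962, against 60.2% and 8.01% of all genes tested. The calls were chosen by the same difference, so little is to be read from these counts. Some calls were favoured by the filter. As deposited, 833 of the 1105 genes that reached 1 RPKM in no liver library were called higher in kidney, and 333 of the 544 that reached it in no kidney library were called higher in liver. Among the 12138 genes at 1 RPKM or more in at least 2 libraries of each tissue, 1492 were called higher in kidney and 1577 in liver, 25.3% in all.

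The most abundant gene of the kidney, DMR_20267, had the largest difference on that side. Its coding length, taken from the recovered reads, was 639 bases. It stood at 19602 RPKM in the breeding male, 27174 in the breeding female, 30615 in the non-breeding male and 44968 in the non-breeding female kidney. In the livers, in the same order, it stood at 14.2, 6.63, 14 and 19.5 RPKM, from 127, 65, 119 and 183 reads. Every kidney was more than 1000 times above its paired liver. The difference was 11.06 (SE 0.258, limma adjusted p = 5.62e-07), and 12.04 after scaling to equal totals. Ranked by mean level, the gene was number 1 in kidney and number 7010 in liver.

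DMR_07783 came next, with a coding length of 1719 bases and rank 3 in kidney. Its levels were 7448 (breeding male), 8951 (breeding female), 4990 (non-breeding male) and 4817 RPKM (non-breeding female) in kidney. The livers had 5.28, 1.52, 1.49 and 1.11 RPKM in that order. The breeding kidneys were above the non-breeding ones, and the breeding male liver stood above the other 3 livers. How many of all genes tested have either order was not counted. The difference was 11.03 (SE 0.25, limma adjusted p = 5.07e-07).

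On the liver side DMR_10289, with a coding length of 1716 bases, was the most abundant gene of all 4 livers. It stood at 193005 RPKM in the breeding male, 100241 in the breeding female, 177561 in the non-breeding male and 162406 in the non-breeding female liver. The kidneys had 27.4, 18.4, 426 and 77.1 RPKM in that order, so the non-breeding male kidney was the highest by far. The difference was -11.2 (SE 0.656, limma adjusted p = 1.71e-05), and its adjusted p ran from 1.82e-06 to 0.000153 over the 15 alternative settings. Without the non-breeding male pair the difference was -12.03 (SE 0.442, limma adjusted p = 2.18e-05).

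DMR_20425, at rank 26 in liver and with a coding length of 1482 bases, had the next largest difference. It stood at 9005, 5307, 7346 and 4962 RPKM in the livers of the breeding male, breeding female, non-breeding male and non-breeding female. The kidneys had 1.36, 0.881, 16.2 and 3.18 RPKM, from 44, 27, 478 and 81 reads. The order of the kidneys was that of DMR_10289, with the non-breeding male highest and the breeding female lowest. The difference was -10.58 (SE 0.489, limma adjusted p = 5.69e-06), and -11.19 (SE 0.34, limma adjusted p = 1.39e-05) without the non-breeding male pair. Over the 15 alternative settings the adjusted p ran from 2.13e-07 to 5.33e-05.

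**Figure D2:**
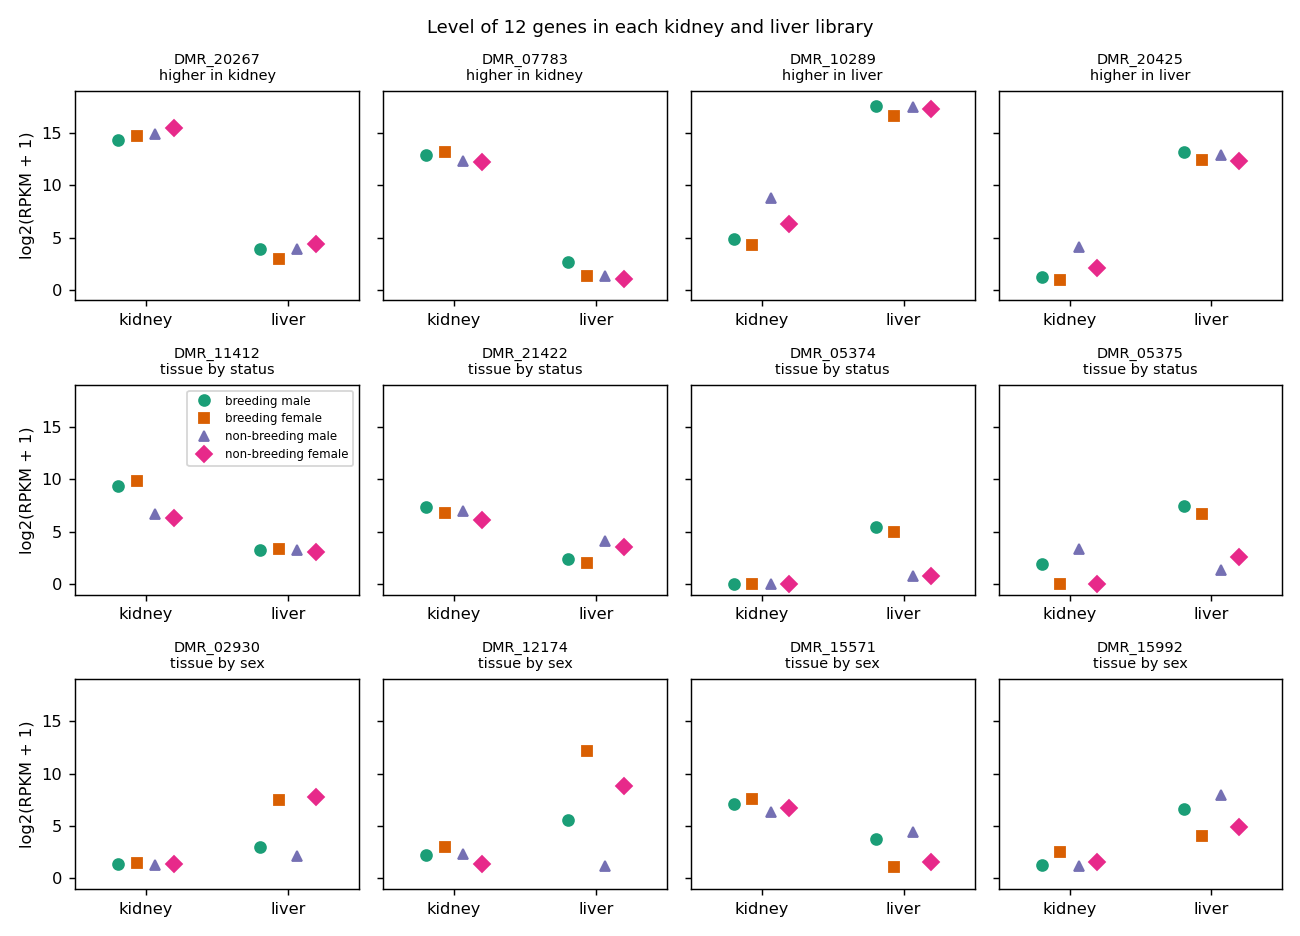
Level as log2(RPKM + 1) of 12 genes in each kidney and liver library, with symbols for the 4 classes of status and sex. The upper row has the 2 genes with the largest difference in each direction; the middle and lower rows have those with the smallest unadjusted p for tissue by status and tissue by sex, of which none passed the adjusted threshold in the fit reported.

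The high value of the non-breeding male kidney was shared by most genes with large differences on the liver side. In the 83 liver genes with a difference of 128-fold or more, that library was the highest of the 4 kidneys for 71, the breeding male for 5, the non-breeding female for 4 and the breeding female for 3. Expressed as a percentage of the gene's mean in liver, the median level was 0.287% in the non-breeding male kidney, with quartiles of 0.221% and 0.372%. It was 0.101% (0.0523% to 0.199%) in the non-breeding female, 0.0876% (0.0241% to 0.17%) in the breeding female and 0.0534% (0.0229% to 0.183%) in the breeding male kidney. The upper quartile was thus 1.69 times the lower in the non-breeding male kidney and 3.8 to 7.96 times in the others. In the 8 libraries of other tissues the medians were 0.0201% to 0.0774%. These genes were chosen for low levels in kidney, so the values are a description, and what sets them was not tested. Without the non-breeding male pair 1997 genes were called higher in liver, against 1999 with it.

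The same description was made for kidney transcripts in liver. In the 38 kidney genes with a difference of 128-fold or more, the median level as a percentage of the kidney mean was 0.077% in the breeding male, 0.0481% in the breeding female, 0.0673% in the non-breeding male and 0.0326% in the non-breeding female liver. The breeding male liver was the highest of the 4 for 15 of these genes, the non-breeding male for 12, the breeding female for 6 and the non-breeding female for 5. The upper quartile was 2.58 times the lower in the breeding male liver and 5.43 to 11.9 times in the others. The breeding male liver thus had the highest median of the livers and the lowest ratio of quartiles. In the brain, ovary and testis libraries the medians were 0.0647% to 0.163%, above the breeding male liver in all but the non-breeding female ovary. These genes were chosen for low levels in liver, so the values are a description, and what sets them was not tested.

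**Figure D3:**
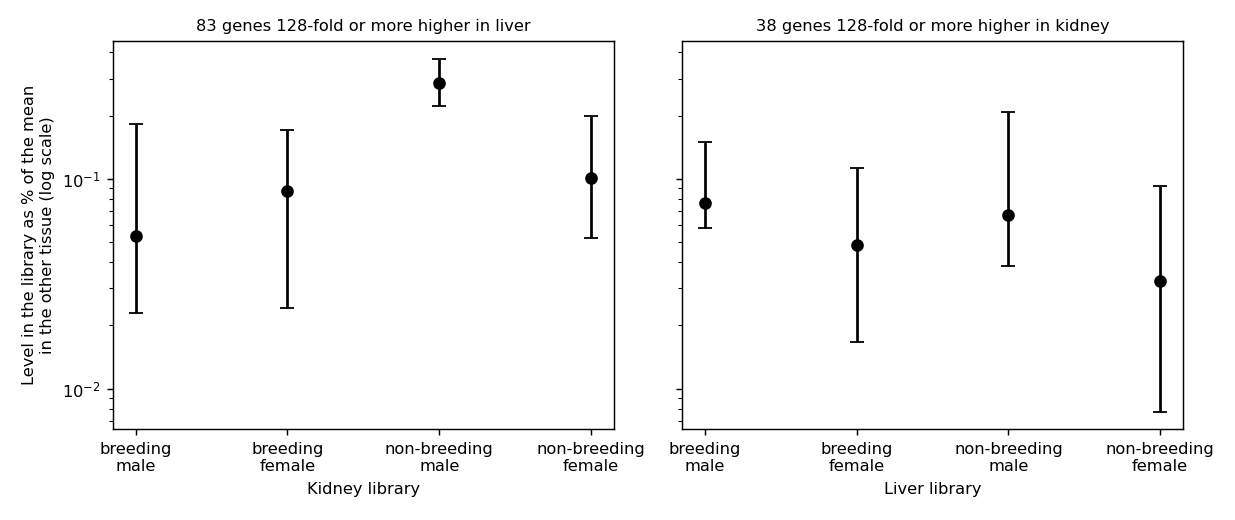
Level of strongly tissue-biased genes in each library of the other tissue, as a percentage of their mean level where they are high (log axis); points are medians over genes and bars run from the lower to the upper quartile. The non-breeding male kidney holds the 83 liver genes at a median of 0.287%, above the 0.0534% to 0.101% of the other 3 kidneys.

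Some genes were read in 1 tissue and nearly absent from the other. Kidney had 130 genes at 1 RPKM or more in all 4 libraries and under 0.1 RPKM in every liver, and liver had 34 of the reverse kind. With a lower limit of 10 RPKM the numbers were 32 and 6. The levels were modest, with medians of 6.01 RPKM in kidney and 4.85 in liver and highest means of 139 and 92.7. For 83 of the kidney set and 18 of the liver set all 4 libraries of the opposite tissue had 0 reads. Under 1 RPKM in all 8 brain, ovary and testis libraries were 38 of the 130 kidney genes (29.2%) and 19 of the 34 liver genes (55.9%), against 3.26% of all genes tested. For 78 of the 130 and 25 of the 34 the mean in their own tissue was above every one of those 8 libraries. The share of all genes for this measure was not counted. By tissue means as deposited, kidney was the highest of the 5 tissues for 15.4% of all genes tested and liver for 24.4%.

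Liver messenger RNA was concentrated in fewer genes. The 100 most abundant genes held 55.4% of the summed RPKM in the breeding male, 50.8% in the breeding female, 55.6% in the non-breeding male and 52.8% in the non-breeding female liver. In the kidneys the shares were 26.7%, 29.7%, 27.8% and 29.7% in that order. Every liver was above every kidney. The mean difference within pairs was 25.2 percentage points (SD 3.66, n = 4 pairs; exact sign-flip permutation test, two-sided, p = 0.125, the smallest p that 4 pairs allow). A count of 61 to 93 genes made up 50% of the summed RPKM in a liver and 537 to 627 in a kidney. For 90% it took 2678 to 3514 genes in liver and 5398 to 5682 in kidney. The most abundant gene alone held 8.55% to 12.8% in liver and 3.07% to 6.92% in kidney, and on each of these measures the breeding female liver was the least concentrated of the livers.

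The abundant genes of the 2 tissues were largely different. The lists of the 100 genes with the highest mean shared 25 genes, 25% of each list. Of the liver list, 70 were liver genes, 19 were not called as deposited, and 20 had a mean under 10 RPKM in kidney. Of the kidney list, 34 were kidney genes, 54 were not called as deposited, 12 were called higher in liver as deposited, and 11 had a mean under 10 RPKM in liver. Of all 14453 genes tested, 960 were liver genes, 2530 (17.5%) were kidney genes and 13.8% were called higher in liver as deposited. The lists rank the same values that the calls use, so little is to be read from these counts. Medians of the lists were 3259 RPKM in liver and 171 in kidney for the liver list, and 1000 RPKM in kidney and 886 in liver for the kidney list. The 25 shared genes had a median difference of -0.83 as deposited and 0.2 after scaling, so their direction turned with the scaling.

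**Figure D4:**
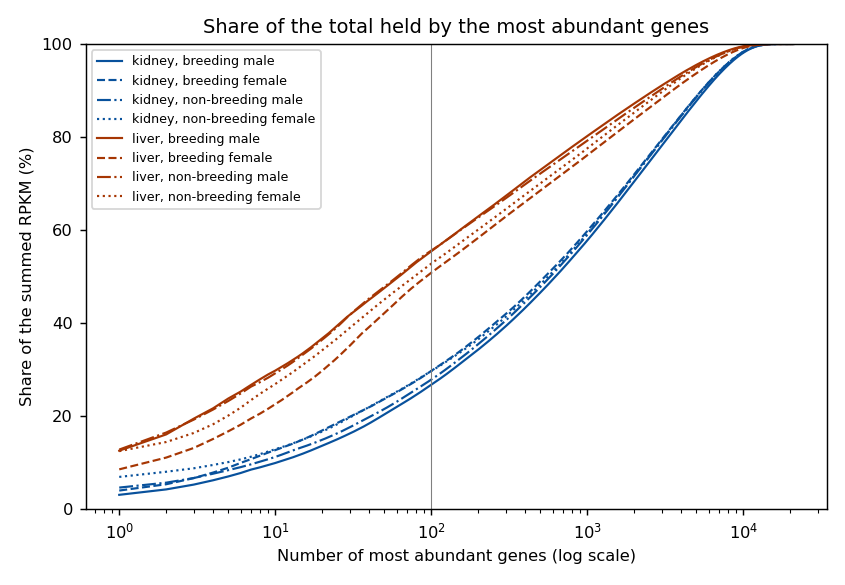
Share of the summed RPKM (y axis, percent) held by the most abundant genes of each library (x axis, number of genes on a log scale), with kidney in blue and liver in brown; the vertical line marks 100 genes. At that line the livers lie between 50.8% and 55.6% and the kidneys between 26.7% and 29.7%.

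Kidney expressed more genes. At 1 RPKM or more there were 13461, 13506, 13293 and 13279 genes in the breeding male, breeding female, non-breeding male and non-breeding female kidney and 12539, 13129, 12675 and 12513 in the livers. The ranges did not overlap, and the mean difference, liver minus kidney, was -671 genes (SD 232, n = 4 pairs; exact sign-flip permutation test, two-sided, p = 0.125). After scaling to equal totals the kidneys had 13786 to 14018 such genes and the livers 11822 to 12798, a mean difference of -1706. Thinning every library to 15634095 reads on genes left 14910 to 15137 genes with 5 or more reads in kidney and 13329 to 14160 in liver. At 1 RPKM or more in all 8 libraries were 11115 genes. A further 713 reached it in all 4 kidneys and no liver, and 274 in all 4 livers and no kidney. At 1000 RPKM or more there were 123 to 168 genes in a liver and 52 to 58 in a kidney as deposited, but after scaling the ranges overlapped, at 92 to 102 and 84 to 95.

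The 8 brain, ovary and testis libraries took no part in the choice of the kidney and liver genes and describe where else these are used. Of the 960 liver genes, 58.6% were at 1 RPKM or more in all 4 brain libraries, 62.1% in both ovary and 64.5% in both testis libraries. Of the 2530 kidney genes, 76.7%, 73.3% and 77.6% were, and of all 14453 genes tested, 84.8%, 85.6% and 87.5%. Below 1 RPKM in all 8 of these libraries were 12.9% of liver genes, 6.4% of kidney genes and 3.26% of all genes tested. The sets differ in the size of their differences, and among genes that differed by 32-fold or more the shares were closer, at 22.8% of 197 liver genes and 19.1% of 141 kidney genes. The median liver gene stood at 2.7 RPKM in brain, 3.56 in ovary and 2.91 in testis. The median kidney gene stood at 9.33 RPKM in brain, 5.79 in ovary and 5.78 in testis, and the median of all genes tested at 12.2, 12.5 and 11.6.

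Which tissue had the highest mean level differed between the sets as well. Over all genes tested, kidney was the highest of the 5 tissues for 15.4%, liver for 24.4%, brain for 21.8%, ovary for 16.5% and testis for 21.8%. Liver was the highest for 803 liver genes (83.6%). Kidney was the highest for 1093 kidney genes (43.2%), while brain was for 737 (29.1%), testis for 361 (14.3%) and ovary for 339 (13.4%). These ranks use deposited values, in which liver totals are larger, but liver can by choice be the highest for no kidney gene. The sets also differ in the size of their differences. As deposited, 846 of the 960 liver genes differed by 4-fold or more, against 1079 of the 2530 kidney genes. At 32-fold or more, kidney was highest for 138 of 141 genes and liver for 193 of 197. The 20 largest differences in each direction ran from 7.85 to 11.06 in kidney and from 9.37 to 11.2 in liver (log2), and their own tissue was the highest for all 20 in both lists. In each list of 20, 3 genes were under 1 RPKM in all 8 other libraries, against 3.26% of all genes tested.

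With genes divided into 4 equal classes by mean level over the 8 libraries, kidney calls as deposited made up 28.9% of the lowest class, then 20.9%, 12.5% and 7.72% of the highest. Liver calls made up 12%, 11.8%, 12.4% and 19.2%, and the liver genes called under both scalings 6.14%, 5.87%, 5.54% and 9.02%. The classes rank levels in the same 8 libraries that the calls use, so little is to be read from these shares. The lowest class had a median level of 2.07 RPKM and includes genes that passed the filter in 1 tissue only. Coding lengths were close, with medians of 1374 bases for kidney genes, 1233 for liver genes and 1299 for all genes tested. Over 4 classes of coding length, the share called higher in kidney as deposited went from 16.1% (72 to 750 bases) to 18.3% (2190 bases or more), and the share called higher in liver from 14.9% to 11.4%.

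Which pair had the most 2-fold differences depended on the scaling. As deposited, 2577 to 2726 genes were 2-fold or more higher in kidney and 2137 to 2179 in liver in the other 3 pairs, and 3016 and 2627 in the breeding female pair, the most on both sides. After scaling, the breeding female pair had the fewest higher in kidney, 5940 against 6414 to 8205, and the most higher in liver, 1494 against 877 to 1062. As deposited, the median absolute difference was 0.756 in that pair and 0.592 to 0.623 in the others. In 4 of 4 pairs 1649 genes (11.4% of those tested) were 2-fold or more higher in kidney and 1248 (8.63%) in liver. After scaling these numbers were 4026 (27.9%) and 622 (4.3%). As deposited, 97 genes were 2-fold or more higher in kidney in at least 1 pair and in liver in another. Without the breeding female pair 2495 genes were called higher in kidney and 2000 in liver as deposited.

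**Figure D5:**
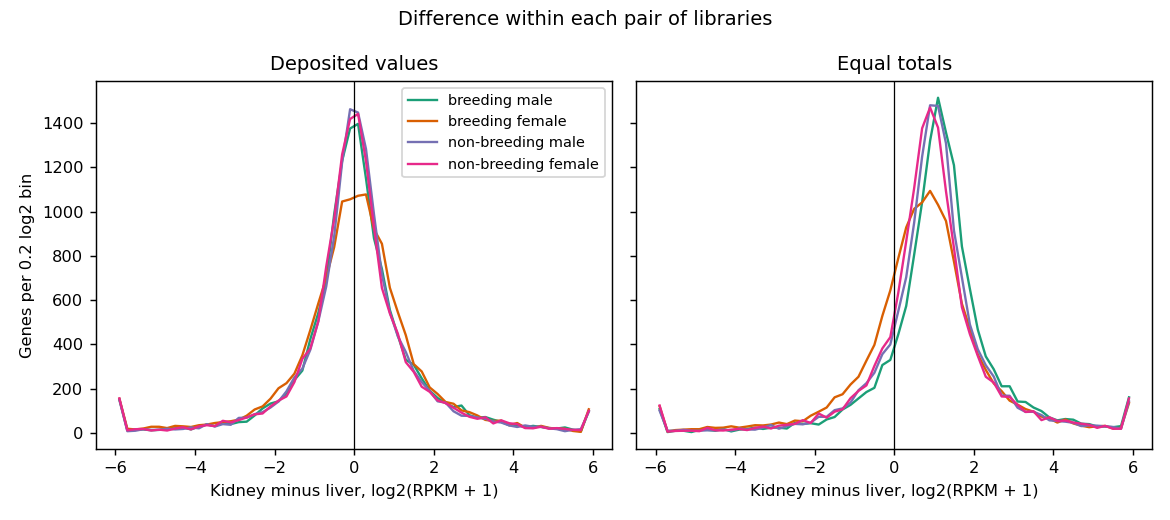
Number of genes per bin of 0.2 (y axis) by the difference between the kidney and the liver library of each pair on the log2(RPKM + 1) scale (x axis), as deposited on the left and after scaling to equal totals on the right; differences beyond 6 in size are in the end bins. The breeding female pair has the lowest peak in both panels, and scaling moves the 4 medians from between 0.01 and 0.07 to between 0.76 and 1.13.

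Spread among the 4 libraries was similar in both tissues for the typical gene. The median SD on the log2 scale was 0.289 in kidney and 0.277 in liver, and it was larger in liver for 48.7% of genes. Strongly variable genes were more common in liver, where 459 had an SD above 1 against 244 in kidney. After scaling the numbers were 422 and 306. Status and sex differ among these 4 libraries, so the SD includes any such differences.

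Whether the difference between kidney and liver was another in breeding than in non-breeding animals was tested by an interaction in limma. It called 0 of 14453 genes (0%), while 703 (4.86%) had an unadjusted p under 0.05, and voom on recovered reads called 0. The fit leaves only 2 residual degrees of freedom, so 0 calls do not show that the difference is the same in both groups. By their labels the non-breeders are 5 and 3 years old and the breeders have no age, so age and status cannot be told apart. The genes below were picked after their values were seen, as the 2 with the smallest unadjusted p in each direction.

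DMR_11412 was high in the breeding kidneys, at 681 RPKM in the male and 921 in the female. The non-breeding kidneys had 105 (male) and 77.5 RPKM (female), and the 4 livers 8.77, 9.15, 8.34 and 7.28. The groups did not overlap in kidney, but the gene was picked by these same values, so little is to be read from this. How many of all genes tested have such kidneys was not counted. The livers were nearly level. The interaction was 2.94 (SE 0.366, limma adjusted p = 0.893). DMR_21422 differed less between the kidneys, at 167, 110, 129 and 68 RPKM in the breeding male, breeding female, non-breeding male and non-breeding female, and more between the livers, at 4.39, 2.95, 16.5 and 10.9. Here the breeding livers were the lower ones, again by the values the gene was picked on, and the interaction was 2.17 (SE 0.278, limma adjusted p = 0.893). DMR_21422 was far higher in the ovaries, at 2340 (breeding) and 1477 RPKM (non-breeding), and the testes had 174 and 165.

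In the other direction DMR_05374, a model of only 99 bases, was listed at 0 in all 4 kidneys. The breeding livers had 42.6 RPKM (59 reads) in the male and 29.6 (45 reads) in the female, and the non-breeding livers 1 read each. The interaction of -4.41 (SE 0.371, limma adjusted p = 0.321) depends on the pseudocount, as the kidneys are at 0. The gene with the next identifier, DMR_05375, stood at 181 and 102 RPKM in the breeding and at 1.49 and 5.12 in the non-breeding livers, male before female. Its kidneys had 2.92 (breeding male), 0 (breeding female), 9.57 (non-breeding male) and 0 RPKM (non-breeding female), and its interaction was -5.84 (SE 0.801, limma adjusted p = 0.893). Both were far higher in the testes, at 194 and 754 RPKM for DMR_05374 and 1330 and 1791 for DMR_05375 (breeding and non-breeding).

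The same was asked for sex, where among non-breeders age goes with sex. The interaction called 0 of 14453 genes (0%), while 802 (5.55%) reached an unadjusted p under 0.05. After scaling to equal totals it called 0, while 1061 (7.34%) reached that unadjusted p. Of these 851 were positive and 210 negative, against 416 and 386 as deposited, so the balance of directions differed between the scalings. With voom it called 0, while 954 (6.6%) reached that p, 796 positive and 158 negative. Over all other settings tried the number called ran from 0 to 11. The smallest limma adjusted p was 0.144 as deposited and 0.106 after scaling. The limit of 2 residual degrees of freedom holds here as well. Of the 4 genes picked as above, each passed the adjusted threshold in 1 to 3 of 18 other settings, and a filter at 5 RPKM gave DMR_02930, DMR_12174 and DMR_15571 a limma adjusted p of 0.0471. In all 4 the male and female livers did not overlap. The genes were picked by these same values, so little is to be read from this. How many of all genes tested have such livers was not counted.

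DMR_02930 was level in the kidneys, at 1.68, 1.74, 1.4 and 1.61 RPKM in the breeding male, breeding female, non-breeding male and non-breeding female. The livers had 6.81, 176, 3.42 and 220 RPKM in that order, so the females were high and the males low. The interaction was 5 (SE 0.444, limma adjusted p = 0.144). DMR_12174 also had the female livers high, with 3.63, 6.73, 4.04 and 1.56 RPKM in the kidneys and 47.8, 4459, 1.21 and 455 in the livers. Its interaction was 7.22 (SE 0.657, limma adjusted p = 0.144), and its mean in liver rests mostly on the breeding female.

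DMR_15571 was higher in kidney than in liver in all 4 classes. The kidneys had 135, 195, 79 and 105 RPKM in the same order and the livers 12.8, 1.13, 20.9 and 2, so the female kidneys were above the male ones within each status and the female livers below. The interaction was -3.24 (SE 0.269, limma adjusted p = 0.144). DMR_15992 was higher in liver than in kidney in all 4 classes and higher in the male livers, at 98.9 and 245 RPKM against 15.2 and 28.1 in the female livers (breeding and non-breeding). Its kidneys had 1.38, 4.71, 1.25 and 1.89 RPKM, and the interaction was -3.67 (SE 0.408, limma adjusted p = 0.24).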

How the data were processed

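Per the labels' protocols, the libraries are from poly(A)+ RNA, primed with random hexamers, and were sequenced as Illumina read pairs; strand is not mentioned. RPKM values for each gene and library, in 1 table, are what the authors deposited. The submitters' processing notes name TopHat 1.3.1; no source used here gives the genome build, the annotation or the counting tool. Reads were recovered from the RPKM as whole numbers for 100% of 21082 genes (values rebuilt within 1e-09 of their size), with lengths in units of 3 bases. This step and the fits were also run on simulated data, and the outcome is not given here. What the authors' divisor counts is not given, and reads on genes came to 0.862 to 0.945 of it in kidney and 1.554 to 1.974 in liver.

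The fits were made by limma 3.58.1 (R 4.3.3) on log2(RPKM + 1) values (lmFit, eBayes with a mean-variance trend, Benjamini-Hochberg adjustment over all genes tested), with the class of status and sex as a block. Interactions used tissue by status and tissue by sex without the block. Each class has 1 library per tissue, so p-values measure only the spread between these libraries. Equal totals means scaling each column to the geometric mean of the 8 totals. Genes were named as the 2 with the largest difference in each direction that were called under both scalings and went the same way in 4 of 4 pairs. The rule for the interactions covered called genes, of which there were none. The comparison, the rules and the tests were chosen with earlier results of these data known. Lists of kidney and liver markers could not be used without gene names.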

Additional observations from a re-analysis of the deposited data

Results flagged for a closer look

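In 40 groups of 4 libraries (library measures and the levels of the 12 named genes), 5 had a highest or lowest library set apart from the other 3 by more than Dixon's critical share of the group's range. Chance alone gives about 1 flag in 20 groups that are independent and not selected. The 12 genes were picked by these same values, and several measures describe the same library. The 5 flags can therefore not be set against that rate. The non-breeding male kidney was set apart for DMR_10289 (426 RPKM, the next kidney 77.1) and DMR_20425 (16.2 RPKM, the next 3.18), which have the largest differences on the liver side. The breeding male liver was set apart for DMR_07783, with 5.28 RPKM against at most 1.52 in the other livers. The breeding female liver was set apart for DMR_12174, with 4459 RPKM against at most 455, and for the share of its most abundant gene, the lowest of the livers at 8.55% against 12.5% or more.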

How the results depend on the processing

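Counts of genes called higher in kidney (2530) and in liver (1999) moved by more than 1.5 times with equal totals (6686 and 962), voom on recovered reads (7196 and 1187) and no fold required (4086 and 3471). In kidney alone they did so with a pseudocount of 5 (1422). They moved less with quantile normalization, equal medians, other filters, a pseudocount of 0.1, totals without the 100 most abundant genes, voom with the deposited divisors (added after seeing the data) and leaving out 1 pair (2444 to 2552 and 1918 to 2000). With equal totals, leaving out 1 pair gave 6083 to 7119 and 913 to 977. In the block fit leaving out a library is the same as leaving out its pair. The 4 genes with the largest differences passed the threshold in all 15 alternatives. No gene (0) was called for tissue by status in any alternative run. For tissue by sex the count of 0 became 1 with a pseudocount of 5, 3 with a filter at 5 RPKM and 11 with the replicate block, where the 4 genes named for sex had adjusted p of 0.0167 to 0.0186, and it stayed 0 without any 1 library. The difference in the share of the 100 most abundant genes was 24 to 26.5 percentage points without 1 pair, and the difference in genes expressed -769 to -587. The cause of these moves was not tested. With no replicate block the tissue calls were 2510 and 1973, and with equal totals 6663 and 951. Deviations of same-class kidney and liver libraries correlated at 0.312 (breeding males), 0.0815 (breeding females), 0.218 (non-breeding males) and 0.383 (non-breeding females), in 4 of 4 classes best with their own class. The labels do not say that a class is 1 animal.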

Other observations

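Genes with neighbouring identifier numbers tended to fall on the same side. Among 10647 genes whose next number was also tested, the next gene was a kidney gene for 17.1%, but for 26.8% of the 1823 kidney genes and 11.7% of the liver genes among them. It was a liver gene for 6.51%, but for 19.5% of the 709 liver genes and 5.05% of the kidney genes. The sources used here do not say whether the numbers follow positions in the genome. Whether near-identical neighbours share reads was not tested.

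The longest run of kidney genes with consecutive numbers held 12 genes and was singled out after its values were seen. Their kidney levels ran from 3.41 to 149 RPKM, and 10 of the 12 were under 1 RPKM in all 4 brain libraries and 6 in all 4 livers. The ovary was in between, with a median over the genes of 12.6 RPKM against 37.3 in kidney, 0.762 in liver, 0.0507 in brain and 1.66 in testis. Of 8 runs of 5 or more kidney genes, 3 others were low in brain as well. A run of 6 had medians of 27.9 RPKM in kidney, 1.69 in liver, 0 in brain and 3.81 in ovary. Another run of 6 had 16.4, 0.0958, 0.108 and 21.7, so that ovary was above kidney, and a run of 5 had 36.6, 0.434, 0.0289 and 14.4. All genes of these 3 runs were under 1 RPKM in all 4 brain libraries, as were 16.6% of the 2530 kidney genes. The remaining runs were not low in brain, with brain medians of 1.63, 8.52, 10.8 and 30.6 RPKM. In the run with 30.6 RPKM, brain was above kidney, which had a median of 2.71. Over all 8 runs, 28 of 49 genes were under 1 RPKM in all 4 brain libraries.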
